A study of Homo sapiens with 24 samples.

Results

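T47D is an established human luminal breast cancer cell line that grows in response to estrogen. ATAC-seq, which counts where the Tn5 transposase can cut open chromatin, was made from T47D cells after 1 h with 100 nM fulvestrant in complete medium and from cells after 1 h with vehicle, 0.1% DMSO by volume. The comparison was chosen by library titles: 4 fulvestrant libraries and 4 vehicle libraries, 8 of the 24 in the series, over all 189403 peaks of the deposited table. Both groups had grown for 1 day in complete medium, with serum and phenol red not removed. Other groups of 4 are used beside them: 100 nM raloxifene and 100 nM tamoxifen, each for 1 h in the same medium, and 1 nM estradiol or vehicle for 1 h after 3 days in medium without phenol red and with charcoal-stripped serum. The labels do not say whether replicates came from separate cultures, and the p-values below speak only of variation among these libraries, which may be technical. The treatment label of vehicle replicates 3 and 4 names fulvestrant, while their titles and descriptions name DMSO. They were used as vehicle, and results without each of them are given below. Both were left out together only in a fit that also called 0 peaks with them.

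The estrogen receptor is a transcription factor that estradiol switches on by binding its ligand pocket. The active receptor binds DNA at estrogen response elements, a pair of inverted half-sites, mostly at enhancers far from gene starts, and recruits coactivators that open or keep open the chromatin there. Fulvestrant is a steroidal antagonist that binds the same pocket and leads to degradation of the receptor, whereas raloxifene and tamoxifen are nonsteroidal modulators that block coactivator binding.

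Some of the peaks that estradiol opened overlap a window around a gene start. Of 23 such peaks, 7 had an unadjusted p under 0.05 with fulvestrant lower. So did 23.6% of all peaks that estradiol opened and 2.39% of all tested peaks. The start windows of the 4 of these 23 with the smallest p are shown, to give the letters of windows that such peaks overlap. None of the 4 passed the threshold: the log2 fold changes were -0.79, -0.39, -0.34 and -0.23 in the order printed, with adjusted p from 0.0813 to 0.999 (edgeR, with the set of replicates, 1 and 2 or 3 and 4, as a term in the fit). The search used GGTCANNNTGACC, which reads the same on both strands, and its half-site GGTCA on either strand. Each window runs from 250 bases before to 50 bases after a RefSeq start (GRCh38.p14), 5′ to 3′ on the gene's strand. Capitals mark half-sites and, in the last 2, the best match to the whole element. The windows are chr3:182699939-182700238 (- strand), chr15:71096644-71096943 (+ strand), chr16:14370217-14370516 (- strand) and chr17:40322475-40322774 (- strand), which lies within RARA.

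LOC107986054: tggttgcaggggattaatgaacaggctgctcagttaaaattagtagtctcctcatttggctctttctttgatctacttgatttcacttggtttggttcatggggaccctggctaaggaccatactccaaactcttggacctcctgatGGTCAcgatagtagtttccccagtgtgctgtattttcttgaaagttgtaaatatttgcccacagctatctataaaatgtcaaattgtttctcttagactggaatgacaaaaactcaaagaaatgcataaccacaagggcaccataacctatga

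THSD4: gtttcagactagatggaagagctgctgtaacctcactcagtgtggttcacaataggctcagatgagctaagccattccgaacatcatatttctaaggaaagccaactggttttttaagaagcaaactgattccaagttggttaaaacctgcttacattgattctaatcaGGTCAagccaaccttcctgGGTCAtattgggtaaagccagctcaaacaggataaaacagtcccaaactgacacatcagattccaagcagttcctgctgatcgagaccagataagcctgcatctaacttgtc

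LINC02130: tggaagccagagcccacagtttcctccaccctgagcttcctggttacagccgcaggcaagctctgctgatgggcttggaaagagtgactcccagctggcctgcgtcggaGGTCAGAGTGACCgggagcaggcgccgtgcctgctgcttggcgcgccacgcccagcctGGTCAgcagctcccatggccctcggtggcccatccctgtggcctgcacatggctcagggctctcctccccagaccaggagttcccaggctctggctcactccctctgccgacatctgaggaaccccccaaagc

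LOC105371934: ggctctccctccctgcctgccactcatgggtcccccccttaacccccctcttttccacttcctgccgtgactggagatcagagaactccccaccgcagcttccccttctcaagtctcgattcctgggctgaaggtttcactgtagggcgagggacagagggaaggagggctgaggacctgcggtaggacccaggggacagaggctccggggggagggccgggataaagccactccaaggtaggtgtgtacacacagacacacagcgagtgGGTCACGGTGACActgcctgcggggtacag

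LINC02130 held the whole element at bases 110 to 122 of its window, and LOC105371934 held it with 1 mismatch at bases 271 to 283. Among all 35116 start windows, 0.0570% held the whole element, 0.817% held it with at most 1 mismatch, and 37.4% held a half-site on either strand. Of the 23 estradiol-raised peaks that overlapped a start window, 1 overlapped a window with the whole element. With at most 1 mismatch allowed, 6 did. The search covered the windows, which can reach beyond the peaks. A match describes the letters in the window and does not show that the receptor was bound.

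The libraries differed in depth. Totals ran from 5448411 to 11262408 counts in 7 of the 8 libraries, while fulvestrant replicate 4 held 434598 counts. In that library 36.1% of peaks had no count, against 1.28% to 3.13% in the other 7, and the tenth of peaks with most counts held 36.9% of its counts, against 49.1% to 53.9% in the other libraries of the series. Its TMM factor was 1.56, against 0.957 to 1.05 elsewhere. Its CPM (counts scaled to library size and TMM factor) was low at strong peaks as a class, though not at each one: over 9803 tested peaks with a mean of 20 to 50 CPM that estradiol did not raise, its median was 12.6 CPM, against 26.4 to 30.4 CPM in fulvestrant replicates 1 to 3 and 27.4 to 30.3 CPM in the vehicle libraries. A count of 0 in it allows up to 4.71 CPM (3 counts, counting error only). Marker genes were read at their strongest peak within 1 kb of a RefSeq start or, where no start window was listed, anywhere inside the gene. All 9 luminal epithelial marker genes had such a peak, at a median of 26.4 CPM with fulvestrant and 36.7 CPM with vehicle; KRT18, KRT19, EPCAM and CDH1 were read inside the gene. Of the basal and mesenchymal marker genes 8 of 12 had one, and of the blood cell marker genes 7 of 11. Their medians were 4.21 and 5.36 CPM with fulvestrant and 5.99 and 7.02 CPM with vehicle. These CPM are means of 4 libraries, so the fulvestrant values include the shallow replicate 4. At KRT8, which gave both luminal medians, fulvestrant replicates 1 to 4 had 35.8, 38.1, 31.9 and 0 CPM. Vehicle replicates 1 to 4 had 40.1, 40.0, 34.1 and 32.7 CPM there. In the edgeR fit with the set term, median log2 fold changes were -0.15 (luminal), -0.12 (basal and mesenchymal) and -0.14 (blood cell). In that order, 1, 2 and 0 peaks had an unadjusted p under 0.05. In bulk samples, fewer cells with an open site and less opening per cell cannot be told apart.

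After 1 h, no peak passed the threshold in the fit with 6 group means. Of 156745 tested peaks, 0 were called in either direction (adjusted p under 0.05, edgeR quasi-likelihood test with Benjamini-Hochberg adjustment; percent called 0.0%). At an unadjusted p under 0.05, 3180 were lower with fulvestrant (2.03%) and 3032 were higher (1.93%). DESeq2 also called 0, as did the older edgeR fit. When the set of replicates (1 and 2, or 3 and 4) entered the fit as a term, 4 peaks were lower (0.00255%) and 0 were higher. The labels name no such sets, and the term was chosen with earlier results of these data known. In pairwise comparisons of counts, chi-square per degree of freedom among fulvestrant libraries was 1.76 for replicates 1 and 2 and 2.63 for replicates 3 and 4, against 2.51 to 3.82 across the sets. Among vehicle libraries it was 2.10 and 1.73 within the sets, against 1.91 to 2.19 across them, so these values do not separate the sets in either group. With the term, 3753 were lower (2.39%) and 3700 higher (2.36%) at an unadjusted p under 0.05. All 4 were among the 1274 peaks that estradiol raised in starved cells, which are 0.813% of tested peaks and were chosen by a contrast of the starved groups. That contrast shares no group mean with fulvestrant against vehicle, but both come from fits over all 24 libraries and share the estimate of spread. Without fulvestrant replicate 4, the fit with the term called 4 peaks, and all 4 were the same.

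The first of the 4 lies inside GREB1, an estrogen-induced gene whose product acts as a receptor cofactor, at chr2:11532540-11532845 (hg38 as deposited; whether starts count from 0 or 1 is not given in the sources used here). It had 10.7, 12.7, 6.41 and 0 CPM in fulvestrant replicates 1 to 4, against 21.4, 22.0, 16.9 and 12.4 CPM in vehicle replicates 1 to 4. These rest on 117, 103, 35 and 0 counts with fulvestrant and 198, 169, 164 and 85 counts with vehicle. Each fulvestrant value was below the vehicle value of its own set of replicates, but the groups overlapped, since fulvestrant replicate 2 was above vehicle replicate 4. The log2 fold change was -1.02 (SE 0.153; adjusted p = 7.37e-05, edgeR) with the set term and -0.87 (SE 0.257; adjusted p = 1.00) without it. Estradiol raised this peak by 2.96 on the log2 scale. A second GREB1 peak, at chr2:11531048-11531281, had the smallest estradiol p among raised peaks near the gene. It had 33.9, 36.0, 18.5 and 14.1 CPM in fulvestrant replicates 1 to 4, against 34.5, 34.2, 36.3 and 33.1 CPM in vehicle replicates 1 to 4. Replicates 1 and 2 were thus at the vehicle level there. The log2 fold change of this second peak was -0.20 without the set term, and it was not called in either fit.

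The second lies inside THSD4, which encodes an extracellular matrix protein, at chr15:71104647-71104989. It had 10.2, 8.63, 3.11 and 7.85 CPM in fulvestrant replicates 1 to 4, against 17.2, 14.6, 13.5 and 12.1 CPM in vehicle replicates 1 to 4. The groups did not overlap, and fulvestrant replicate 3 was lowest. Replicates 3 and 4 rest on 17 and 5 counts there, so the place of replicate 4 is loosely set. The log2 fold change was -0.99 (SE 0.174; adjusted p = 0.00521, edgeR) with the set term and -0.85 (SE 0.279; adjusted p = 1.00) without it.

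The remaining 2 lie outside protein-coding genes. The peak at chr5:173453231-173453461 is 125 kb from STC2, which encodes a secreted glycoprotein induced by estrogen. It had 26.8, 29.2, 16.3 and 3.14 CPM in fulvestrant replicates 1 to 4 (2 counts in replicate 4), against 38.9, 34.1, 35.9 and 30.7 CPM in vehicle replicates 1 to 4, with no overlap. Its log2 fold change with the set term was -0.64 (SE 0.121; adjusted p = 0.0227, edgeR). The peak at chr12:23225839-23226076 is 304 kb from SOX5, a transcription factor gene, and had the smallest p in the fit without the term. It had 6.31, 3.70, 3.85 and 0 CPM in fulvestrant replicates 1 to 4, against 10.7, 8.06, 10.3 and 8.32 CPM in vehicle replicates 1 to 4. Here too every fulvestrant value was below every vehicle value, and the log2 fold change was -1.05 (SE 0.205; adjusted p = 0.0346, edgeR) with the term and -0.996 (SE 0.217; adjusted p = 1.00) without it. The reference table gives gene extents only, so exon or intron is not stated.

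**Figure D1:**
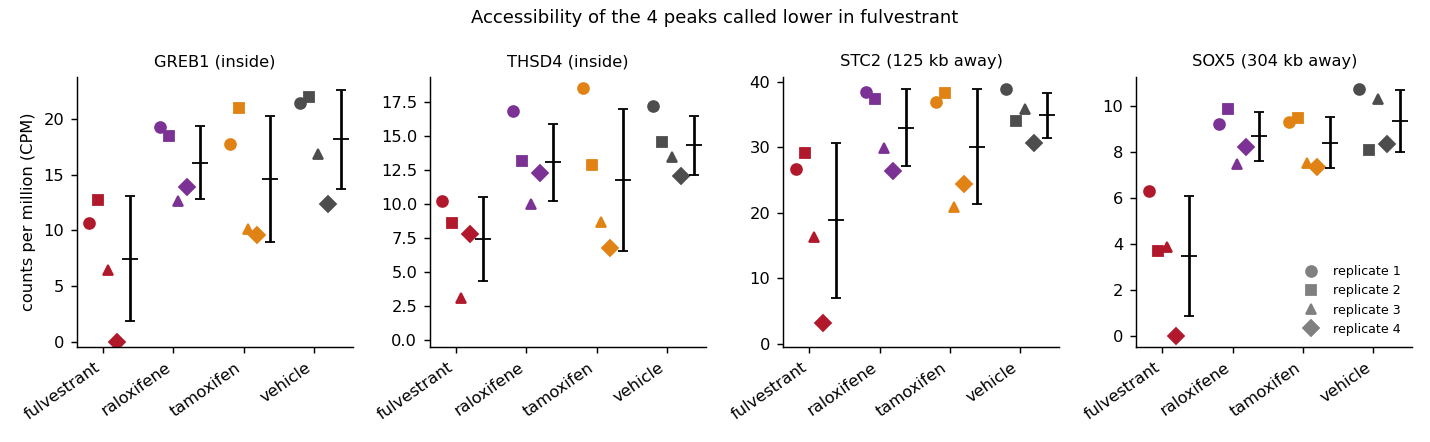
CPM in each complete-medium library (y axis) for the 4 peaks called lower with the set term, by group; symbols are replicates, and the black dash and bar are the mean and SD of 4 libraries. Fulvestrant values are lowest on average at each peak, and replicate 4 is at 0 for GREB1 and SOX5.

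Which calls stood depended on single libraries. With the set term, leaving out 1 of the 8 libraries left 1 to 6 lower peaks, and GREB1 was called each time; 1 higher peak was called without fulvestrant replicate 2 and without vehicle replicate 2. Without fulvestrant replicate 3, or without vehicle replicate 3, GREB1 was the 1 peak called. With only the 8 libraries in the fit, GREB1 again was the 1 peak called (adjusted p = 0.0285). Without vehicle replicate 4, GREB1 and THSD4 were called with the term, while STC2 and SOX5 were not (adjusted p = 0.106 and 0.0920, edgeR). Without the term, leaving out any 1 library gave 0 calls, and so did leaving out vehicle replicates 3 and 4, whose labels conflict. The fit without the term called 0 peaks with all libraries too, so it cannot bear on the calls made with the term. No fit with the term left out both of these vehicle libraries.

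The other estradiol-raised peaks around each called peak were mostly lower too. So were the estradiol-raised peaks as a whole: 81.4% of all 1274 were below 0 with the set term (median -0.20). Within 200 kb of the GREB1 peak, 9 of 10 other raised peaks had a log2 fold change below 0 with the set term (median -0.30), and among all 79 tested peaks there 9 were lower and 0 higher at an unadjusted p under 0.05. Near THSD4, 5 of 6 other raised peaks were below 0 (median -0.18), and 6 of 41 peaks were lower and 1 higher at that p. Near STC2, 6 of 6 were below 0 (median -0.38), and 13 of 58 peaks were lower and 0 higher. Near SOX5, both other raised peaks were below 0 (median -0.40), and 3 of 18 peaks were lower and 0 higher. These counts include the called peak itself, and stand beside 2.39% lower and 2.36% higher over all tested peaks. The peaks there that estradiol did not raise had medians of -0.12 (GREB1), -0.07 (THSD4), -0.09 (STC2) and 0.0026 (SOX5), against -0.0084 over all tested peaks.

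**Figure D2:**
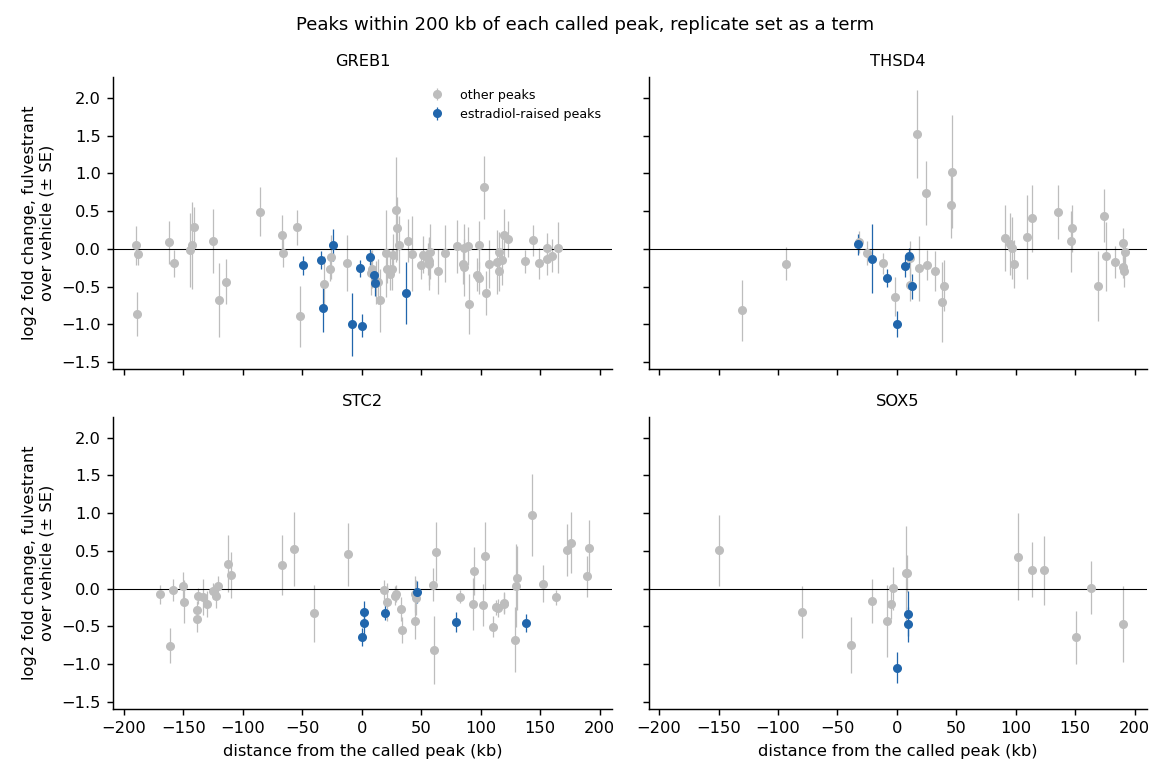
Log2 fold change of fulvestrant over vehicle with the set term (y axis, bars are SE) against distance in kb from each called peak (x axis). Estradiol-raised peaks, in blue, lie mostly below 0 and near the centre.

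Over all 1274 estradiol-raised peaks, the median log2 fold change was -0.20 with the set term and -0.16 without it, against -0.0084 and -0.0098 over all tested peaks. With the term, 81.4% of raised peaks were below 0, against 51.3% of all tested peaks (51.5% without the term). At an unadjusted p under 0.05, 301 raised peaks were lower (23.6%) and 11 were higher (0.863%). Raised peaks were stronger on average than the other tested peaks, by 0.98 on the log2 scale in the vehicle libraries. Fulvestrant replicate 4 was low at strong peaks as a class, so all tested peaks are not a baseline of like abundance. The part of abundance in these values was not tested. The 35 peaks that estradiol lowered (0.0223% of those tested) had a median of 0.02, and 16 of them were below 0. Peaks with a larger estradiol response had lower medians: -0.15, -0.20 and -0.28 when the raised peaks were divided into 3 parts from the smallest to the largest response. The shares below 0 did not follow that order (84.2%, 78.8% and 81.2%). The parts also differed in level, with medians of 8.16, 2.24 and 0.811 CPM in starved vehicle, and response and level were not told apart. Raised peaks inside protein-coding genes had a median of -0.18, those outside -0.22, and the 205 that lie over 100 kb from any such gene -0.27.

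**Figure D3:**
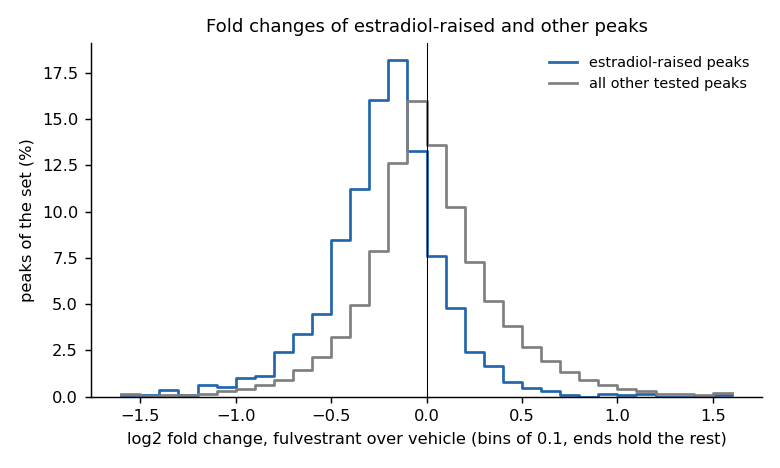
Share of peaks (y axis, %) by log2 fold change of fulvestrant over vehicle with the set term (x axis, bins of 0.1). The estradiol-raised peaks are shifted below 0, and the other tested peaks, which are not matched in abundance, centre near 0.

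Ranked by p, the peaks lower with fulvestrant held a larger share of estradiol-raised peaks than the higher ones. With the set term, 10 of the first 10 falls were estradiol-raised, 22 of the first 30 and 47 of the first 100, against 0 of the first 300 rises. Without the term, 5 of the first 10 falls and 26 of the first 100 were. These shares are set beside 0.813% of all tested peaks. The peaks leading the rises were weak, with a median of 1.78 CPM over the first 10 with the term, against 11.8 CPM over the first 10 falls.

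**Figure D4:**
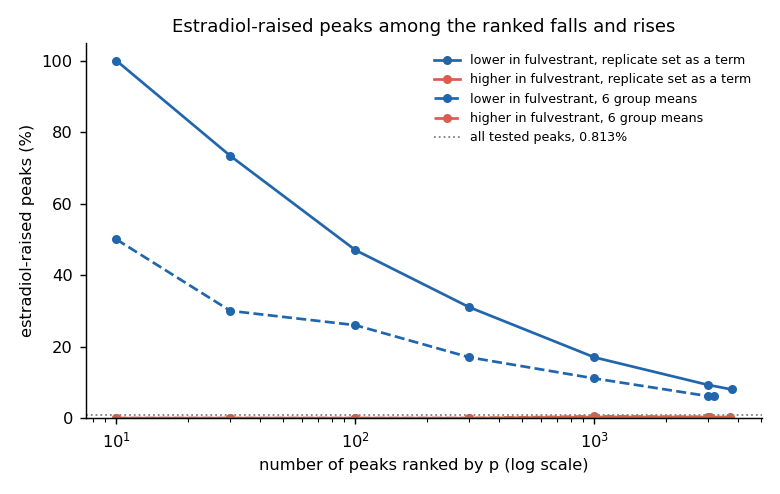
Estradiol-raised peaks (y axis, %) among peaks ranked by p (x axis, log scale), lower or higher with fulvestrant, in both fits. The falls reach 100% at rank 10 with the set term and stay above the dotted line of 0.813%; the rises stay under it.

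The estradiol-raised peaks were also followed library by library, with no test. The mean CPM of raised peaks over that of all other tested peaks, on the log2 scale, was 0.93, 0.95, 0.60 and 0.36 in fulvestrant replicates 1 to 4, against 1.02, 1.00, 0.96 and 0.96 in vehicle replicates 1 to 4. The groups did not overlap, with fulvestrant replicates 1 and 2 just below the lowest vehicle library and replicates 3 and 4 far below it. Against peaks of matched abundance, a scale added after the low strong peaks of replicate 4 were seen, the values were 0.16, 0.16, -0.14 and -0.18 with fulvestrant and 0.24, 0.25, 0.18 and 0.18 with vehicle. Raloxifene libraries had 0.25, 0.25, 0.17 and 0.13, and tamoxifen libraries 0.20, 0.24, 0.05 and 0.03, on the same matched scale. The median log2 fold change of raised peaks was -0.08 within replicates 1 and 2 and -0.54 within replicates 3 and 4, against 0.0026 and -0.07 over all tested peaks. Within replicates 1 and 2, 1 peak was called lower, the GREB1 peak (0.000642%); within replicates 3 and 4, 15 were called lower (0.00933%), 12 of them estradiol-raised, and 73 higher (0.0454%). A test of the difference itself, the fulvestrant effect in replicates 3 and 4 minus that in replicates 1 and 2, called 32 peaks higher (0.0204%) and 4 lower (0.00255%), and 1 of these 36 without fulvestrant replicate 4. The shallow depth of fulvestrant replicate 4 moves with these values in replicates 3 and 4, and its part in them was not tested.

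**Figure D5:**
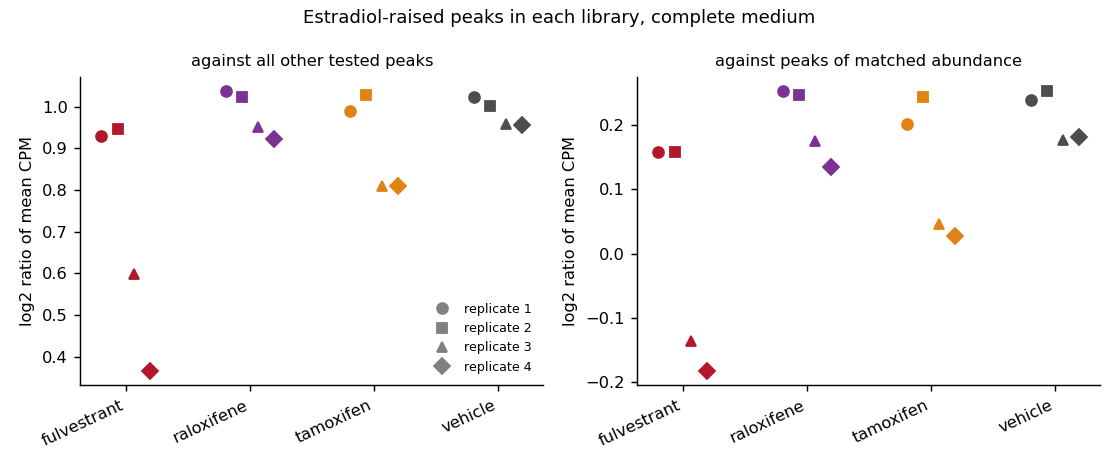
Log2 ratio of the mean CPM of estradiol-raised peaks to all other tested peaks (left) or to peaks of matched abundance (right), 1 point per library, by group. Fulvestrant replicates 3 and 4 are lowest in both panels, and tamoxifen replicates 3 and 4 are below their replicates 1 and 2.

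Among 34 estrogen-induced genes, 22 had an estradiol-raised peak within 50 kb, and in 20 of those the median of the raised peaks was below 0 with the set term. Of the list's 898 peaks, 65 were lower (7.24%) and 9 higher (1.00%) at an unadjusted p under 0.05, against 2.39% and 2.36% of all tested peaks. The list's median was -0.08, which other lists came close to or passed. Luminal epithelial markers had a median of -0.11, immediate early genes of -0.07, unfolded protein response genes of -0.06, chaperone and heat shock genes of -0.05 and housekeeping genes of -0.04. Of their peaks, 6.43%, 3.10%, 2.54%, 2.65% and 3.09% were lower at that p, and 0.357%, 1.55%, 2.54%, 0.758% and 2.58% were higher, in the same order. The list's leading raised peaks had lower values at ZMIZ1, a coactivator gene (log2 fold change -0.41, SE 0.104), SIAH2, a ubiquitin ligase gene (-0.41, SE 0.141), PGR, the progesterone receptor gene (-0.35, SE 0.119), and IGFBP4, which encodes an insulin-like growth factor binding protein (-0.34, SE 0.110). None of these passed the adjusted threshold. The PGR peak had 32.1, 31.6, 18.9 and 3.14 CPM in fulvestrant replicates 1 to 4, against 32.0, 34.8, 35.1 and 36.8 CPM in vehicle replicates 1 to 4, so replicate 1 was at the vehicle level. Raised peaks near KCNK5, a potassium channel gene (0.35, SE 0.169), and TGIF2, a transcriptional repressor gene (0.19, SE 0.167), were above 0.

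The 18 luminal identity genes had a median of -0.08 over 551 peaks, with 27 lower (4.90%) and 7 higher (1.27%) at an unadjusted p under 0.05, against 2.39% and 2.36% of all tested peaks. The estrogen receptor and its coregulators had a median of -0.0027 over 488 peaks, with 7 lower and 7 higher (1.43% each). The strongest start peak of ESR1, the receptor's own gene, had 19.8, 22.9, 18.9 and 4.71 CPM in fulvestrant replicates 1 to 4, against 18.6, 18.8, 22.9 and 20.9 CPM in vehicle replicates 1 to 4, a log2 fold change of 0.02 (SE 0.132). Of 60 tested peaks within 50 kb of ESR1, 3 were lower and 0 higher at an unadjusted p under 0.05. All 3 estradiol-raised peaks among the 60 were below 0 (median -0.28). Basal and mesenchymal markers had a median of 0.03 and blood cell markers of 0.0073.

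Fulvestrant was also set against the other 2 antagonists at the same dose and time, and 2 pairs were compared. These contrasts do not involve the vehicle group's mean, although all 24 libraries are in the fit and set its estimate of spread. With the set term, the vehicle libraries also enter the estimate of the set effect, which all groups in complete medium share. Against raloxifene, 1 peak was lower (0.000638%), inside ZMIZ1, and 0 were higher (0.0%). That call was lost in DESeq2, in the older edgeR fit, without fulvestrant replicate 3 and without any 1 raloxifene library. With the set term 7 were lower (0.00447%), and 6 of the 7 were estradiol-raised. Against tamoxifen 0 were called (0.0%), with 4216 lower (2.69%) and 4051 higher (2.58%) at an unadjusted p under 0.05; DESeq2 and the older edgeR fit also called 0. With the set term 3 were lower (0.00191%), 2 of them estradiol-raised. The ZMIZ1 peak at chr10:79128630-79128949 had 41.8, 42.8, 29.9 and 14.1 CPM in fulvestrant replicates 1 to 4, against 58.0, 59.1, 55.4 and 60.1 CPM in raloxifene replicates 1 to 4, with no overlap. Its log2 fold change was -0.62 (SE 0.101; adjusted p = 0.000247, edgeR) with the term. The GREB1 peak was lower than with raloxifene by -0.83 (95% interval -1.13 to -0.52; adjusted p = 0.0122, edgeR), and its difference from tamoxifen was -0.67 (95% interval -0.99 to -0.35; adjusted p = 0.435, edgeR), which does not show that both act alike. The THSD4, STC2 and SOX5 peaks called against vehicle were called against neither antagonist. Their differences from raloxifene were -0.84, -0.55 and -0.92 (adjusted p = 0.0613, 0.109 and 0.109, edgeR). From tamoxifen they were -0.68, -0.40 and -0.87 (adjusted p = 0.637, 0.711 and 0.448, edgeR). Over the estradiol-raised peaks the median was -0.21 against raloxifene and -0.14 against tamoxifen, beside -0.0036 and -0.0087 over all tested peaks.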

How the data were processed

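The deposited values are raw counts per peak in 1 peak set shared by all 24 libraries, with no normalization. The submitters' processing notes name cutadapt 1.8.1, Bowtie2 2.4.4, SAMtools 1.9 and the hg38 build; how peaks were called and counted, and any Tn5 shift, is not stated there. From these counts, peaks below filterByExpr's defaults (10 per library, 15 in total) were dropped, and the rest were scaled by TMM and fitted in edgeR 4.0.16 (R 4.3.3) with 6 group means over all 24 libraries (quasi-likelihood F-test, two-sided, legacy=FALSE, robust=TRUE). Benjamini-Hochberg adjustment ran over every tested peak, and the scripts were tested on simulated data. Alternatives were other scalings, filters, replicate sets, blocks, DESeq2 1.42.0 and leaving out each library. Sets, lists, members and tests were chosen with earlier results of these data known. Estradiol-raised peaks came from the contrast of the starved groups in the same fit. Named peaks were the 8 falls and 8 rises with the smallest p at or above the median abundance, the leading estradiol-raised peaks of estrogen-induced genes and of the whole set, start peaks of listed genes (any peak inside the gene where no start window was listed), the leading peaks against each antagonist, and the peaks called with the set term; a selection is given. Intervals cover 1.96 SE. Gene extents and start windows are RefSeq's (GRCh38.p14). Peaks were given to the nearest protein-coding gene, and lists to peaks within 50 kb.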

Additional observations from a re-analysis of the deposited data

Results flagged for a closer look

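In 36 peaks (0.023% of those tested) the fulvestrant effect differed between replicates 3 and 4 and replicates 1 and 2 by an interaction test (edgeR, adjusted p under 0.05), 32 of them higher in replicates 3 and 4; 1 of the 36 was estradiol-raised, and 1 was called without fulvestrant replicate 4. The count was 23, 0, 3445 and 1 without fulvestrant replicates 1 to 4, and 411, 0, 0 and 44 without vehicle replicates 1 to 4.

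Of 136 groups of 4 values examined for a library far from the others, 6 had one, and chance gives about 1 in 20. Fulvestrant replicate 4 stood apart in its share of peaks with no count (36.1%), in its TMM factor (1.56) and at the peak 129 kb from VWC2 (10.99 CPM). Vehicle replicate 4 stood apart at the peak inside MCF2L (3.79 CPM) and at a second peak inside THSD4 (14.4 CPM), and vehicle replicate 1 at the peak inside RARA (96.9 CPM).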

How the results depend on the processing

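The count of called peaks in fulvestrant against vehicle, 0 without a term, became 4 when the replicate set was a term, 4 with the term and without fulvestrant replicate 4, 1 within replicates 1 and 2 and 88 within replicates 3 and 4. With the set term it was 4 under RLE factors, 4 under total counts, 6 under loess offsets, 11 in DESeq2, 2 in the older edgeR fit and 1 with only the 8 libraries; leaving out 1 library gave 6, 3 and 1 without fulvestrant replicates 1, 2 and 3, and 3, 5, 1 and 2 without vehicle replicates 1 to 4. Fits with the term other than the plain one and the fit without fulvestrant replicate 4 were added after seeing the data. Fulvestrant and vehicle libraries of the same replicate number had correlations of deviations from their group means between -0.02 and 0.09. Libraries of different numbers were not set beside them, so these values cannot decide whether the numbers pair the libraries. With the replicate block, 4 peaks were called against vehicle, 6 against raloxifene and 3 against tamoxifen. Against raloxifene, 1 call became 7 with the set term, 0 in DESeq2, 0 in the older edgeR fit and 0 to 1 when 1 library was left out. Against tamoxifen, 0 became 3 with the set term, 1 with loess offsets and 0 to 1 when 1 library was left out. The 36 peaks whose effect differed between the sets of replicates became 0 with only the 8 libraries and 0 to 3445 when 1 library was left out, the highest without fulvestrant replicate 3. The median of the estradiol-raised peaks, -0.16, was below 0 in all 36 alternatives and reached -0.54 within replicates 3 and 4, as did that of the estrogen-induced list, -0.06, at -0.17. Among 63 named peaks, 8 of 2256 values changed sign: within replicates 1 and 2 the second GREB1 peak (0.01999) and TMEM229B (0.0789); within replicates 3 and 4 the KCNK5 peak (-0.27) and TGIF2 (-0.32), the last also at -0.0124 with the set term and without fulvestrant replicate 1; and TEX14 between -0.40 and 0.13 when 1 library was left out, above 0 without fulvestrant replicate 3, vehicle replicate 1 or vehicle replicate 2. The cause was not tested. Of 518 medians of the other 14 lists, 63 moved by more than the spread between libraries. Depth limits fulvestrant replicate 4 to 0.637 counts per CPM.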

Other observations

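Against vehicle, edgeR over all 24 libraries called no peak outside the estradiol-raised set, with or without the set term. Against the other antagonists it called 2 such peaks lower, both with the set term. These were the peak inside TEX14 against raloxifene (adjusted p = 0.0251, edgeR) and the peak 39.1 kb from CYP2A7 against tamoxifen (adjusted p = 0.00315, edgeR). The peak inside RASGRF2, a guanine nucleotide exchange factor gene, had 2.65, 2.96, 2.56 and 4.71 CPM in fulvestrant replicates 1 to 4, against 0.973, 0.520, 0.617 and 0.730 CPM in vehicle replicates 1 to 4, with no overlap (log2 fold change 1.88, SE 0.424 with the set term; not called). The RASGRF2 peak was chosen after its values were seen. They rest on 29, 24, 14 and 3 counts with fulvestrant and 9, 4, 6 and 5 counts with vehicle. Raloxifene replicates 1 to 4 had 1.24, 4.09, 0.931 and 1.91 CPM there, so a high value was not limited to fulvestrant. The peak inside VWA8 had 4.48, 5.05, 3.66 and 0 CPM with fulvestrant, against 2.27, 1.95, 1.85 and 1.46 CPM with vehicle, so the groups overlapped through the shallow replicate 4. The start peak of CDH2 and the peak inside SNAI2, genes of mesenchymal cells, had log2 fold changes of -0.62 (SE 0.220) and 1.12 (SE 0.438), and neither was called.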
